A study of Mus musculus with 5 samples.

Results

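The transcripts of the SoxC factors Sox4, Sox11 and Sox12 were examined in the pharyngeal arch region of E10.5 wild-type mouse embryos, a tissue whose labels also name the second heart field, the source of heart outflow tract cells. The mice were 129P2/OlaHsd mice crossed back to C57BL/6 over 2 generations, and no allele or treatment was added. There were 5 samples, each an individual tissue isolate, in 1 group with no comparison group, and 10 ng of RNA from each was amplified and hybridised to an Affymetrix Mouse Genome 430A array. The members were all probe sets annotated with exactly 1 gene whose symbol is Sox4, Sox11 or Sox12, which gave 8 of 22626 probe sets: 6 for Sox4, 1 for Sox11 and 1 for Sox12. A probe set is a group of short probes read out as 1 signal, and signals of different probe sets differ with how well their probes bind, so the signals of 2 genes or of 2 probe sets do not give their transcripts' relative amounts. Because the whole tissue was measured, a signal does not show which cells the RNA came from, and fewer cells of a type and less RNA per cell cannot be told apart.

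SoxC proteins are transcription factors that bind DNA through a high-mobility-group (HMG) box and activate transcription through a conserved domain at their C-terminal end. Sox4 and Sox11 are expressed widely in progenitor cells of the embryo, in neural crest and arch mesenchyme, and in newly formed neurons. Mouse embryos without Sox4 die with defects of the outflow tract of the heart, those without Sox11 die at birth with heart and craniofacial defects, and mice without Sox12 are viable. Sox12 is the weakest activator of the group.

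The 250 bases in front of each gene's annotated start, from RefSeq (GRCm38.p6, minus strand for all 3 genes), are shown because they are the DNA closest to the start of the transcripts measured here. They lie at chr13:28953700-28953949 for Sox4, chr12:27342719-27342968 for Sox11 and chr2:152398047-152398296 for Sox12, and are printed 5′ to 3′ on the gene's strand. Capitals mark matches, on either strand, to the CCAAT box, to GGGCGG (the GC box bound by Sp1-type factors), to the octamer ATGCAAAT bound by POU factors, to TATAAA, and to both ACAAT and ACAAAG, the core letters of many Sox binding sites.
Sox4: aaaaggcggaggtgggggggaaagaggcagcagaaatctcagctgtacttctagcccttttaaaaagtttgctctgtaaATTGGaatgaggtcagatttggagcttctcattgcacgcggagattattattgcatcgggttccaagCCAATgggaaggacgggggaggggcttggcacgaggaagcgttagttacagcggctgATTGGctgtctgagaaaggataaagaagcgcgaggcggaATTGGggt
Sox11: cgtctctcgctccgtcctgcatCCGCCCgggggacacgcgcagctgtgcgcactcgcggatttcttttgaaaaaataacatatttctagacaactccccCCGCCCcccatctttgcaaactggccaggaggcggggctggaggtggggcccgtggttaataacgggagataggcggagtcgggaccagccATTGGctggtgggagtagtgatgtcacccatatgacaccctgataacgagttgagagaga
Sox12: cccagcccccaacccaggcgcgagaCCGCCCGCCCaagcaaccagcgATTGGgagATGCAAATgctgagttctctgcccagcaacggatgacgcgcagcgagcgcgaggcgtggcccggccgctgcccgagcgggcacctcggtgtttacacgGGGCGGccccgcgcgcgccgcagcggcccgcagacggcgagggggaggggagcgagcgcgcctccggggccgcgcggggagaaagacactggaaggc
The Sox4 window held 4 CCAAT matches and no GGGCGG match. The Sox11 window held 1 CCAAT and 2 GGGCGG matches, and the Sox12 window 1 CCAAT and 3 GGGCGG matches, of which 2 overlapped. The Sox12 window also held the octamer, at 195 to 188 bases before the start. Neither TATAAA nor ACAAT nor ACAAAG had a match in any of the 3 windows. Of 32851 RefSeq promoter windows of the same length, CCAAT occurred in 33.8%, GGGCGG in 32.7%, TATAAA in 12.4%, ACAAAG in 16.5%, ACAAT in 27.7% and the octamer in 1.60%. GC content was 50.8% for Sox4, 58% for Sox11 and 74.4% for Sox12, and the median of all windows was 52.4%. These matches describe letters and not bound sites.

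All 3 genes gave a signal above background, Sox4 and Sox11 in every sample by more than 2 log2 units at their brightest probe set, and Sox12 by a small margin. The background level of an array was the 95th percentile of the signal over 186 probe sets of 157 genes restricted to sensory receptors, glands, hair, sperm and lymphoid cells. It was 17.4, 15.3, 18.1, 22.7 and 23.4 signal units in replicates 1 to 5. The excess of a probe set is its log2 signal minus the log2 level of its array, averaged over the 5 samples, and is given with its SE. It was tested one-sided with limma, and probe sets with a Benjamini-Hochberg adjusted p below 0.05 over all 22626 were called above background. By this rule 6 of 8 SoxC probe sets (75%) were above background, against 50.3% of all probe sets, and the median excess was 1.73 for the 8, against 0.54 for all probe sets. The arrays were alike in scale, with median signals between 28.1 and 32.2. Over the 7426 genes with a mean above the level, the median absolute log2 difference between 2 arrays ran from 0.23 for replicates 1 and 2 to 0.37 for replicates 1 and 4. Replicate 4 stood apart in its sex-linked genes, with 916 for Xist, against 1.28 to 26.3 in the other samples, and 20.1 for the Y-linked Eif2s3y, against 769 to 968 in the other samples. By these genes replicate 4 read as female and the other samples as male. A difference between replicate 4 and the other samples therefore cannot be told apart from a difference of sex.

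Sox4, which mouse embryos need for a normal outflow tract, had its brightest signal at probe set 1433575_at. The signal was 1974, 1799.8, 1416, 963 and 1110.3 in replicates 1 to 5, a mean of 1453 ± 433 (SD, n = 5). It was highest in replicates 1 and 2 and lowest in replicates 4 and 5, and the lowest sample lay far above its array's level. The excess was 6.20 ± 0.19 (adjusted p = 7.06e-20, limma), and the probe set stood between the 94.6th and 97.7th percentile of signal on every array. Probe set 1449370_at gave 279, 244, 238, 372 and 168 (260.2 ± 74.4), an excess of 3.72 ± 0.19 (adjusted p = 5.60e-22, limma). Here replicate 4 was the highest sample, not the lowest.

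The other 4 Sox4 probe sets ran down to and below background. Probe set 1455867_at gave 101, 73.8, 44.6, 103 and 50.8 in replicates 1 to 5, with an excess of 1.88 ± 0.21 (adjusted p = 8.36e-11, limma). Probe set 1419156_at gave 97.7, 77.3, 47.2, 51.6 and 34.1, with an excess of 1.59 ± 0.23 (adjusted p = 1.00e-07, limma). Both were above the level in all 5 samples, but their order of samples differed. Probe set 1419155_a_at, whose suffix marks probes shared by alternative transcripts of a gene, gave 18.1 to 26.7 and lay at the level, with an excess of 0.29 ± 0.27 (adjusted p = 0.269, limma). Probe set 1419157_at gave 1.08 to 11.7 and lay below the level in all 5 samples, with an excess of -2.30 ± 0.67 (adjusted p = 1, limma). Sox4 was thus read as far above background or as not above it depending on the probe set, on the same 5 RNA samples. With the mean of all 6 probe sets in place of the brightest, the excess of the gene was 1.90, against 6.20, and it was still called (adjusted p = 5.55e-08, limma).

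Sox11, which acts with Sox4 in heart, skeleton and neurons, was measured by 1 probe set, 1436790_a_at. The signal was 207, 259, 356, 111 and 106 in replicates 1 to 5 (208 ± 105), highest in replicate 3 and lowest in replicates 4 and 5. Every sample was above its level, by 2.18 log2 units in replicate 5 to 4.30 in replicate 3. The mean excess was 3.29 ± 0.30 (adjusted p = 1.62e-07, limma). The highest sample was 3.37 times the lowest, the widest ratio among the 6 SoxC probe sets above background.

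Sox12 was also measured by 1 probe set, 1455562_at. The signal was 33.9, 51.1, 48.5, 26.7 and 36.3 in replicates 1 to 5 (39.3 ± 10.3), lowest in replicate 4, where it exceeded the level by 0.23 log2 units. The mean excess was 0.999 ± 0.233 (adjusted p = 0.000122, limma). With the level at the 99th percentile of the same background probe sets, the excess was 0.26 ± 0.23 and the call was lost (adjusted p = 0.288, limma). With a background set that also held widely expressed casein kinases and interferon receptors, Sox12 lay below the level, with an excess of -1.92, and Sox11 was no longer called, with an excess of 0.37 ± 0.18 (adjusted p = 0.0905, limma), while Sox4 was called by 1433575_at and 1449370_at alone.

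**Figure D1:**
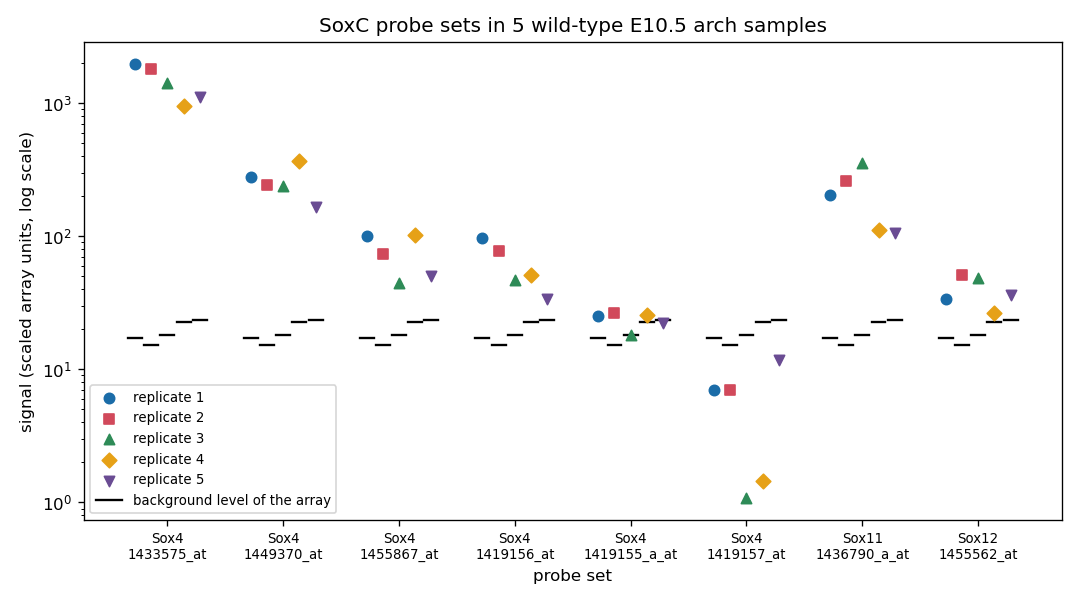
Signal of the 8 SoxC probe sets (log axis, scaled array units) in the 5 samples, 1 marker per replicate, with a short black line at each array's background level. The brightest Sox4 probe set lies between 963 and 1974, Sox11 between 106 and 356 and Sox12 between 26.7 and 51.1, while 1419157_at lies below the level in all 5 samples.

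SoxC signals differed between the samples, most for Sox11 among the probe sets above background, and no SoxC probe set passed the test for varying more than probe sets of like signal. Each variance was set against limma's trend of variance on mean signal with an F test over the 12818 probe sets with a mean above the level, of which 29 (0.226%) passed at an adjusted p below 0.05 and 681 had an unadjusted p below 0.05. None of the 7 SoxC probe sets in this test passed, and 2 of them had an unadjusted p below 0.05. In simulated data the test found 66% of probe sets with 3 times the trend SD, so it can miss a raised variance. Sox11 had an SD of 0.77 log2 units, against 0.30 on the trend, a variance 6.35 times the trend (unadjusted p = 0.00616, adjusted p = 0.543, limma). Sox4 at 1433575_at had an SD of 0.44, against 0.23 on the trend (unadjusted p = 0.0382, adjusted p = 0.905, limma). Sox12 had an SD of 0.39, against 0.43 on the trend (adjusted p = 0.991, limma).

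With Sox4 read at 1433575_at, the 3 genes lay on the same side of their means in 4 of the 5 samples, but differed in which sample was highest. This did not hold at other Sox4 probe sets. Relative to its own mean over the 5 arrays, the log2 signal of Sox4 at 1433575_at was 0.50, 0.36, 0.02, -0.54 and -0.33 in replicates 1 to 5. Sox11 stood at 0.15, 0.48, 0.94, -0.75 and -0.81, and Sox12 at -0.17, 0.42, 0.34, -0.52 and -0.07. By these probe sets, replicates 4 and 5 were below the mean for all 3 genes and replicates 2 and 3 above it. Replicate 1 was above it for Sox4 and Sox11 and below it for Sox12. At 1449370_at Sox4 stood at 0.15, -0.04, -0.08, 0.56 and -0.59, opposite to Sox11 and Sox12 in replicates 2, 3 and 4. At 1455867_at it was opposite to both in replicates 3 and 4. The log2 ratio of Sox11 to Sox4 at 1433575_at within an array, centred on its mean, ranged from -0.48 in replicate 5 to 0.92 in replicate 3. The ratio of Sox12 to Sox4 ranged from -0.67 in replicate 1 to 0.33 in replicate 3. Both ratios varied over a smaller range than those of the Sox4 probe sets 1449370_at (1.51 log2 units) and 1455867_at (1.76) to 1433575_at. Both varied over a larger range than the ratio of 1419156_at to 1433575_at (0.80). Because probe sets of 1 gene can differ this much, the ratios cannot show whether the genes' transcripts changed unequally.

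The Sox4 probe sets also disagreed among themselves on which samples were high. The log2 ratio of 1449370_at to 1433575_at, centred on its mean, was 1.10 in replicate 4, against -0.41 to -0.10 in the other samples. For 1455867_at over 1433575_at it was 1.08 in replicate 4, against -0.67 to 0.02 in the other samples. For 1419156_at over 1433575_at it lay between -0.42 and 0.39. The range over arrays of this ratio for the brightest pair of Sox4 probe sets was 1.51 log2 units. Among 2425 genes with 2 or more probe sets above background the median range for the brightest pair was 0.88, and 295 genes (12.2%) had a range at least that of Sox4. A statement that Sox4 was lower in replicate 4 therefore holds for 1433575_at and is reversed at 1449370_at and 1455867_at. At 1419156_at replicate 4 lay at -0.15 relative to the mean over the arrays, but replicate 5 was the lowest sample. The cause was not tested.

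**Figure D2:**
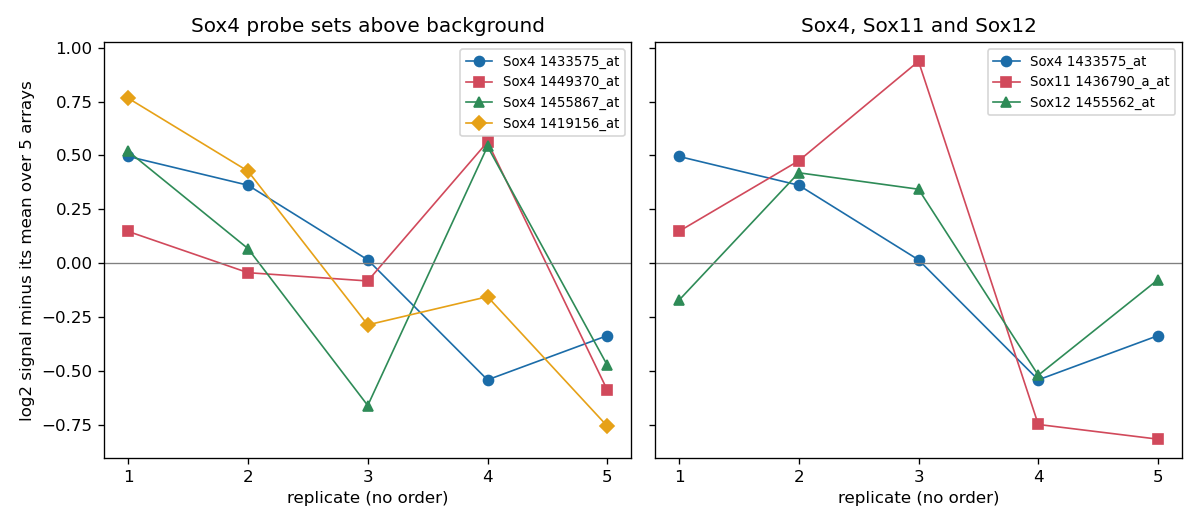
Log2 signal minus its mean over the 5 arrays, by replicate, for the 4 Sox4 probe sets above background (left) and for Sox4, Sox11 and Sox12 at their brightest probe set (right); lines join values of 1 probe set. In replicate 4, 1449370_at and 1455867_at lie above their means by 0.56 and 0.54, while 1433575_at lies at -0.54, Sox11 at -0.75 and Sox12 at -0.52.

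Markers of the cell types in the tissue were read in the same samples. Neuronal genes, a site of SoxC expression, were all above background (10 of 10 measured, against 54.2% of all genes), with mean signals from 31.5 for Isl2 to 1463 for Stmn3 and none at 0. Nefl (783) and Stmn2 (754) followed Stmn3. Their summed signal was 5086, 4757, 6046, 3157 and 5407 in replicates 1 to 5. Their mean log2 signal, centred over the samples, was 0.21, -0.02, 0.23, -0.50 and 0.07. For all genes with a mean above the level the median was 0.01, 0.02, -0.02, -0.0045 and 0.05. Replicate 4 was low in neuronal genes, in Sox4 at 1433575_at, in Sox11 and in Sox12, but was the highest sample of Sox4 at 1449370_at and 1455867_at. Replicate 5, the lowest sample of Sox11, stood at 0.07 in neuronal genes. Erythroid genes, with 5 of 9 above background (55.6%, against 54.2% of all genes) and led by Hbb-y, Hbb-bh1 and Tfrc, had their lowest summed signal in replicate 4 (10508) and their highest in replicate 5 (19099.5). Arch mesenchyme and crest genes moved less, with a mean of 0.34 in replicate 1 and values below 0, down to -0.22, in the other samples, and cell cycle genes lay between -0.10 and 0.12. The part of these differences in the SoxC signals was not tested.

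The tissue label was read against the same lists by gene, with the brightest probe set standing for each gene. Of 12393 genes, 6712 (54.2%) were above background, with a median excess of 0.88. Arch mesenchyme and neural crest genes gave 10 of 13, led by Crabp1, a retinoic acid binding protein, Prrx1 and the receptor gene Pdgfra. In this list Dlx5, Msx2 and Foxd3 were not above background. Second heart field genes gave 5 of 11, namely Isl1, Foxc2, Foxc1, Mef2c and Tbx20, while Tbx1, Nkx2-5, Hand2, Fgf8, Fgf10 and Eya1 were not above background. Pharyngeal epithelium gave 11 of 12, led by Esrp1, Krt18 and Cldn6 and without Pax9. Cell cycle genes gave 11 of 11, led by Pcna, Rrm2 and Top2a. Endothelium gave 6 of 10 (60%), led by Tek, Cd34 and Flt1, while Pecam1, Cdh5, Tie1 and Erg were not above background. Cardiac muscle gave 6 of 12 (50%), led by Actc1, Myl4 and Tnnc1. Here Myh6, Myh7, Myl2, Myl3, Tnni1 and Nppa were not above background. Both shares were close to the 54.2% of all genes. Adult tissue markers gave 1 of 10, Mbp.

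Among the other Sox genes, Sox9 and Sox2 were the brightest relative to background. By gene, SoxC gave 3 of 3 above background, and the rest of the family gave 8 of 15 measured (53.3%, against 54.2% of all genes), with a median excess of 0.69, against 0.88 for all genes. By probe set, 8 of 25 outside SoxC were called (32%), against 50.3% of all probe sets. Sox9, a SoxE gene of cartilage and crest cells, had signals of 523, 481, 410, 246 and 302 in replicates 1 to 5 (excess 4.30, adjusted p = 3.67e-17, limma). Sox2, a SoxB1 gene of neural progenitors and foregut, had 390.1, 298, 264, 204 and 176 (excess 3.74). In both genes replicates 4 and 5 were the lowest, as in Sox4 at 1433575_at and in Sox11. The remaining 6 called genes had an excess of 0.69 to 1.08. The count of 8 genes fell to 2 with the level at the 99th percentile and to 4 with the mean of all probe sets of a gene. The 6 were Sox7 and Sox17, SoxF genes of endothelium and endoderm, the SoxD genes Sox13 and Sox6, the crest gene Sox10, and Sry. Sox17, Sox10, Sox6 and Sox9 also had probe sets that were not called. Their excess was -2.94 for Sox17, -0.69 and -2.17 for Sox10, -1.96 for Sox6 and 0.27 for Sox9. The Sox17 call came from 1429177_x_at, whose suffix marks probes that can match other sequences. Sox21 and Sox3 (SoxB), Sox5 (SoxD), Sox18 (SoxF), Sox15, Sox14 and Sox1 were not above background.

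The call of Sry bears on how a small excess such as that of Sox12 can be read. Sry, the testis-determining gene, lies on the Y chromosome. Its probe set 1450579_x_at, whose suffix marks probes that can match other sequences, gave 36.5 in replicate 4, the sample without Eif2s3y signal, and 42.5, 42.8, 25.0 and 39.5 in replicates 1, 2, 3 and 5. Its other probe set, 1450578_at, gave 2.71 in replicate 4 and 0.984 to 13.02 in the other samples and was not called. A mean of 37.3 ± 7.33 with an excess of 0.94 was therefore called for a gene whose signal in the sample that lacked Eif2s3y signal lay within the range of the other samples. Sox12, with 39.3 ± 10.3 and an excess of 0.999, lay at a like signal. How much of the Sox12 signal came from other sequences was not tested.

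**Figure D3:**
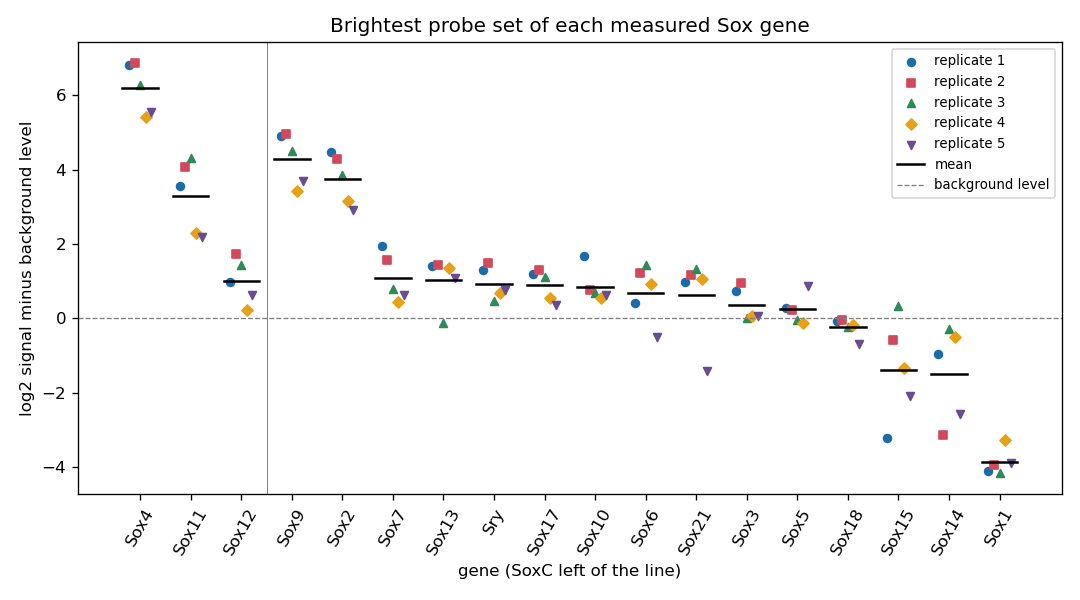
Log2 signal minus the array's background level for the brightest probe set of each of the 18 measured Sox genes, with SoxC left of the line, 1 marker per replicate and a black bar at the mean. Sox4 lies at a mean of 6.20, Sox11 at 3.29 and Sox12 at 0.999; among the others Sox9 (4.30) and Sox2 (3.74) lie highest and the next gene is at 1.08.

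Genes put together from general knowledge as candidate SoxC targets gave 6 of 9 above background, with a median excess of 4.06, against 54.2% and 0.88 for all genes. Those called were Tead2, a Hippo pathway transcription factor gene (331 ± 97.9), Tubb3, the tubulin of neurons (432 ± 73.7), Dcx, a microtubule protein of migrating neurons (658 ± 221), the histone methyltransferase gene Ezh2 (1060.5 ± 73.6), Stmn1 (8231 ± 1530) and the growth cone gene Gap43 (280.3 ± 56.7). Map2 (14.3 ± 8.40), Osr2 (4.31 ± 3.42) and Sema3c (24.1 ± 8.26) were not called. Tubb3, Dcx and Gap43 also mark neurons in general, and Gap43 stands in the neuronal list too. Tead2, a gene of progenitors, had 396, 424, 219, 232 and 386 in replicates 1 to 5, with replicates 3 and 4 low. Stmn1 was lowest in replicate 4 (5765), against 8201 to 9936 in the other samples.

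Candidate partners and cofactors gave 6 of 8 above background, with a median excess of 2.54, against 54.2% and 0.88 for all genes. The proneural factor genes Neurod1 (448 ± 60.8), Neurog2 (125 ± 41.5) and Neurog1 (57.6 ± 12.9), which precede SoxC genes in neuron formation, were called. So were Ctnnb1, beta-catenin (3653 ± 693), the nuclear import gene Kpnb1 (2598 ± 324) and Tcf3, an E protein gene (104 ± 20.3). The POU factor genes Pou3f2 (7.19 ± 5.33) and Pou3f3 (7.76 ± 6.73), whose products can bind beside Sox proteins, were not above background. Neurog2 was highest in replicate 1 (186) and lowest in replicate 4 (86.9).

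For each member, the 5 genes with the most similar pattern over the 5 samples were taken by the root mean square (RMS) difference of centred log2 signals, among 7423 genes with a mean above the level. For Sox4 at 1433575_at they were Nbea, Sox9, Chtop, Zic2 and Col1a1, with differences of 0.05 to 0.08, where the median gene differed by 0.47. Sox9 differed by 0.06 and stood second. For Sox11 they were Pla2g4a, Cnih2, Cpeb4, Sh3gl3 and Tbc1d17, with differences of 0.14 to 0.22 and a median gene at 0.75. Of these, Pla2g4a, Cnih2 and Tbc1d17 lay below the array's background level in replicates 4 and 5. Cpeb4, an RNA-binding protein gene, gave 174, 229, 267, 107 and 111 in replicates 1 to 5. For Sox12 they were Sos2, Usp45, Ring1, Vamp7 and Clvs1, with differences of 0.06 to 0.09 and a median gene at 0.44. Ring1 too lay below the level in replicates 4 and 5. Because the smallest of 7423 differences were picked, they lie below the median by selection. Neither of the other SoxC genes was eligible for these lists. The points share 5 arrays and their amplification, and nothing about shared function or control follows from the likeness.

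**Figure D4:**
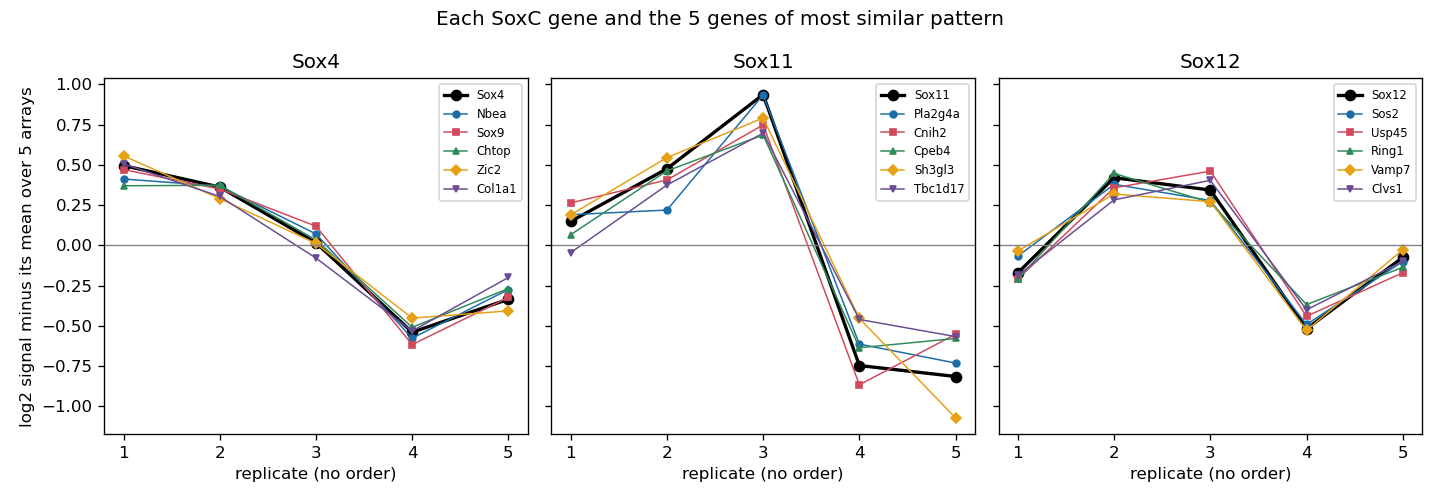
Log2 signal minus its mean over the 5 arrays for Sox4 (1433575_at), Sox11 and Sox12 (thick black lines) and for the 5 genes of most similar pattern to each (thin lines), by replicate. Sox11 and its 5 neighbours are highest in replicate 3 and below their means in replicates 4 and 5, while Sox4 and its neighbours are highest in replicates 1 and 2.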

How the data were processed

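Per the labels' protocols, RNA from 5 wild-type isolates was amplified, biotin-labelled with NuGEN kits and hybridised to Affymetrix 430A arrays. The deposited intensity values, 1 linear signal per probe set, came from GCOS per the submitters' processing notes, and its version and settings are not given in the sources used here. Amplification from little RNA adds to the spread between samples, and the number of arrays limits the precision. The labels do not say whether the embryos shared a litter, so the samples may not be independent. The spread that the p-values rest on may be partly technical, and the detection test takes each array's level as known without error.

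Of 22690 probe sets, 64 controls were left out. Of the rest, 20380 had 1 gene in the annotation, 691 several and 1555 none, and 20351 were matched to RefSeq symbols by Entrez identifier. Signals were floored at 1, put on the log2 scale and fitted with limma 3.58.1 (R 4.3.3), lmFit then eBayes (trend, robust), by probe set and by gene (the brightest probe set). The detection and variance tests by probe set were tried on simulated data. Detection recovered 2% of probe sets with a seeded excess of 0.5, 52% at 1 and 100% at 2, with 6 false calls. Few simulated probe sets were given an excess, and all others lay at or below the level. In the measured data 50.3% were called, so the adjustment was less strict there and these shares do not carry over. The variance test recovered 66% of probe sets at 3 times the trend SD and 95% at 6 times, with 6 false calls. Its other simulated probe sets had no spread of their own around the trend, so these shares do not carry over to the measured data. The members and gene lists were chosen with earlier results of these data known, so no list is independent evidence. Named were all SoxC probe sets and the Sox, target and partner lists. Also named were the 3 brightest called genes of other lists and the 5 genes most like each member. Isl2, Mef2c and Tbx20 were named after their values were seen. So were the genes not above background of the second heart field, arch mesenchyme, epithelium, endothelium and cardiac lists. Alternatives changed the background level, floor, pseudocount, normalization, limma options, probe sets, filter and replicates.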

Additional observations from a re-analysis of the deposited data

Results flagged for a closer look

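Of 61 sets of 5 values, 6 had a sample far from the other 4 by Dixon's criterion, where chance gives about 1 in 20. The sets included genes picked for likeness to the members and ratios of member probe sets. They were not independent, so that rate is only a rough guide. The log2 ratio of the Sox4 probe sets 1449370_at and 1433575_at, centred on its mean, was 1.10 in replicate 4, against -0.41 to -0.10 in the other samples. Sox21 (1451835_at) had a signal of 8.75 in replicate 5, against 34.1 to 47.6 in the other samples. Sox5 (1432189_a_at) had 42.9 in replicate 5, against 17.5 to 21.2 in the others. Sox13 (1450191_a_at) had 16.6 in replicate 3, against 41.2 to 58.1. Map2 (1421328_at) had 1.29 in replicate 4, against 12.5 to 23.9. Sema3c (1420696_at) had 10.03 in replicate 2, against 24.3 to 31.3. Sox21, Sox5, Map2 and Sema3c were not above background. The outlying values of Sox21, Sox13, Map2 and Sema3c lay below their array's level. None of the 8 SoxC probe sets met the criterion by its own signal.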

How the results depend on the processing

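No paired analysis was possible because all 5 samples form 1 group. Sox4 was above background under all 15 alternatives, with an excess of 1.90 for the mean of its probe sets, Sox11 under 13 of 14 and Sox12 under 13 of 15. The wider background set, which raised the level to between 120 and 164 signal units, gave 4566 probe sets, 2931 genes, 2 SoxC probe sets and 11 variable probe sets. It gave an excess of 0.37 for Sox11 (adjusted p = 0.0729 by gene, limma), -1.92 for Sox12, and -1.04, -1.33 and -2.63 for the Sox4 probe sets 1455867_at, 1419156_at and 1419155_a_at. At the 99th percentile level the excess was 0.26 for Sox12 (adjusted p = 0.261 by gene, limma) and -0.45 for 1419155_a_at, and at the 90th percentile level that probe set was called. Plain _at probe sets alone, which leave out Sox11, gave 7413 called and 19 variable probe sets. The number of variable probe sets was 29 as reported, 54 with a floor of 16, 70 without the filter on low signal and 0 without limma's trend and robust options; leaving out 1 replicate gave 8 (without replicate 4) to 41 (without replicate 2), and 19 and 18 without replicates 3 and 5. No SoxC probe set was among them under any alternative. Called Sox genes outside SoxC numbered 8 as reported, 2 at the 99th percentile level and with the wider set, and 4 with plain probe sets or the mean of all probe sets. The cause of these shifts, beyond the height of the level and the number of probe sets tested, was not tested. Leaving out 1 replicate kept the excess between 6.03 and 6.39 for Sox4, 3.03 and 3.56 for Sox11 and 0.81 and 1.19 for Sox12. A level built on other probe sets limits what a small excess shows.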
